A study of Mus musculus with 6 samples.

Results

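Receptors and bridging proteins with which macrophages take up apoptotic cells were examined in RNA-seq libraries of MSR1 KO and MSR1 WT macrophages. The 8 genes were chosen by symbol from the 52550 genes of the table: the receptors Mertk, Axl, Tyro3, Timd4 and Lrp1, and the bridging proteins Gas6, Pros1 and Mfge8. All 8 were found, and all 8 passed the filter on low counts. Bone marrow of C57BL/6 mice grew for 7 days in 25 ng/ml M-CSF, the growth factor that yields bone marrow-derived macrophages (BMDMs). The macrophages were then kept for 48 h in a transwell system with bone marrow mesenchymal stem cells (BMSCs), and RNA was sequenced from 3 MSR1 KO and 3 MSR1 WT libraries. MSR1 is a scavenger receptor of macrophages, and the comparison asks what its loss does to macrophage transcripts in the presence of BMSCs. Every library came from a co-culture, so no macrophage kept alone serves as a baseline. The knockout was not restricted to macrophages. The ages and sexes of the mice, and which mice gave which library, were not given in the labels, so the p-values measure the spread between these libraries.

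Dying cells expose phosphatidylserine on their outer membrane, which phagocytes read either directly or through soluble bridges. Mertk, Axl and Tyro3 are the TAM receptor tyrosine kinases, and Gas6 and Pros1 (protein S) are their vitamin K-dependent ligands, which bind phosphatidylserine through a carboxylated Gla domain. Axl responds to Gas6, whereas Mertk and Tyro3 can use either ligand. Mfge8 links phosphatidylserine to αv integrins, Timd4 binds phosphatidylserine by itself, and Lrp1 takes up cargo marked by calreticulin. In macrophages, Mertk is known for the quiet clearance of apoptotic cells, and Axl is known to rise with interferon and other inflammatory signals.

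Total counts ranged from 36143518 to 47417448 per library. Msr1 was at 49.3 ± 8.51 CPM (counts scaled by library size) in the MSR1 KO libraries and 200 ± 20.9 CPM in the MSR1 WT libraries (mean ± SD, n = 3), and reads thus remained on the gene. On the log2 scale it fell by 2.02 (standard error 0.14), with a Benjamini-Hochberg adjusted p of 0.0012 from the quasi-likelihood test of edgeR. Of 12 macrophage markers none was at 0, and their summed level was 29302 to 30300 CPM in MSR1 KO and 28659 to 31477 CPM in MSR1 WT libraries. The markers with the most counts were Lyz2 (13398 against 14912 CPM), Mpeg1 (4816 against 4576 CPM) and Csf1r (4539 against 4413 CPM), with adjusted p-values of 0.36, 0.63 and 0.75. The label of macrophages thus had its defining transcripts in every library.

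The promoters of Axl and Mfge8 are shown because these were the genes of the group that passed the test. Each window runs 5′ to 3′ on the gene's strand from 250 bases before to 50 bases after the RefSeq start on GRCm38.p6, and capitals mark the GC box GGGCGG or its reverse complement CCGCCC. The Axl window is chr7:25788684-25788983 and the Mfge8 window is chr7:79149011-79149310, both on the minus strand.
Axl: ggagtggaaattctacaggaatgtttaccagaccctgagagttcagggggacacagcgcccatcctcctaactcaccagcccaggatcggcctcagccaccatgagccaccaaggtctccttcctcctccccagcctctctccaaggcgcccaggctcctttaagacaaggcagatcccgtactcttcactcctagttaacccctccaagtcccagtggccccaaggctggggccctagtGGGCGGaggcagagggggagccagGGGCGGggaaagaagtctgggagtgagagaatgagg
Mfge8: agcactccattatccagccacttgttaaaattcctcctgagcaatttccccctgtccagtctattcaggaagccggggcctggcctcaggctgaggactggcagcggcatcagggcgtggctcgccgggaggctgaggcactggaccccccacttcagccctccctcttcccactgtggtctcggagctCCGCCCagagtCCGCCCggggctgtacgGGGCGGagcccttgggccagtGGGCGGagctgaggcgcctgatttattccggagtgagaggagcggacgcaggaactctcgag
The Axl window held 2 GC boxes and the Mfge8 window held 4, with G and C making up 60.3% and 64.3% of the bases. A GC box stood in the windows of 7 of the 8 genes, Timd4 being the exception, and in 35.7% of 32851 promoters of the same length. All motifs were searched on both strands. An interferon response element (a repeated GAAA separated by a short gap) was in none of the 8 windows and in 3.44% of all promoters. A STAT element, spelled TTCNNNGAA, was in the windows of Pros1 and Lrp1 and in 8.3% of all promoters. A CCAAT box was in the Timd4 window alone and in 37.4% of all promoters. None of the 8 windows held an AP-1 element (TGANTCA, 7.81% of all promoters), an E-box (CACGTG, 7.15%), a PU.1 element (GAGGAAGT, 3.2%), an LXR element (a direct repeat of AGGTCA, 0.0152%) or a TATA box (TATAAA, 13.6%). These are matches of letters in short windows, and no binding was measured.

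Mfge8 was lower and Axl was higher in MSR1 KO macrophages, and the other 6 genes did not pass the test at an adjusted p of 0.05. Among all 16402 genes tested, 4.91% passed, 2.25% as higher and 2.66% as lower. Mfge8 was the gene of the 8 that met the study's own definition of a changed gene, a fold above 1.5 with an unadjusted p under 0.05, which 8.64% of all genes met, 3.59% as higher and 5.05% as lower. An unadjusted p under 0.05 was reached by 4 of the 8 genes, Axl as higher and Mfge8, Gas6 and Pros1 as lower, against 18.9% of all genes (8.65% higher and 10.2% lower). The MSR1 KO values lay wholly above the MSR1 WT values for 2 genes (Axl and Timd4) and wholly below them for 3 genes (Mfge8, Gas6 and Pros1), against 12.1% and 13.4% of all genes. The median log2 fold change was -0.10 over the 8 genes and -0.0023 over all genes tested. Fold changes, intervals and adjusted p-values of the 8 genes are from that edgeR test throughout, with 3 libraries in each group.

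**Figure D1:**
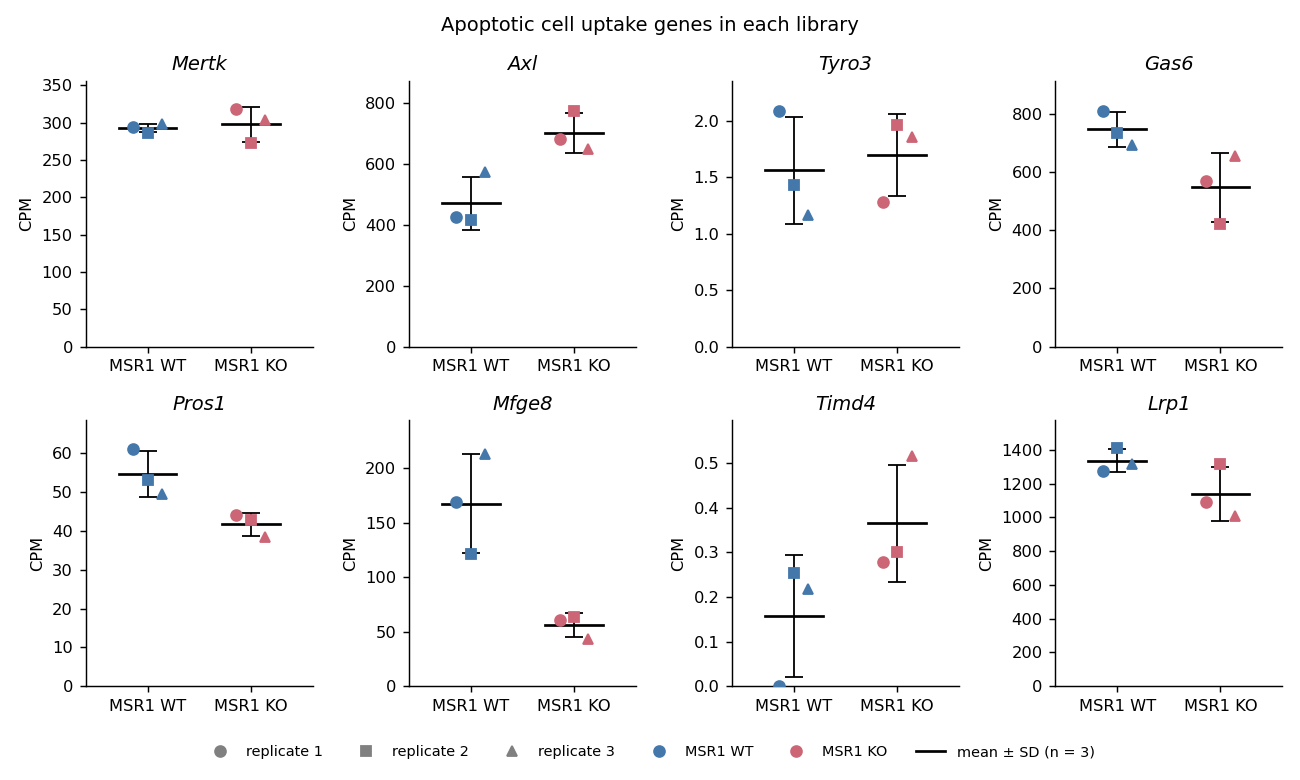
Level of each of the 8 genes in CPM, with an axis from 0, in the 3 MSR1 WT (blue) and 3 MSR1 KO (red) libraries. Marker shapes are replicate numbers, and lines are the mean ± SD (n = 3). For Mfge8 the MSR1 KO libraries lie at 43.3 to 63.9 CPM and the MSR1 WT libraries at 121 to 213 CPM, whereas the groups overlap for Mertk, Tyro3 and Lrp1.

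Mfge8 (ENSMUSG00000030605.15, chromosome 7 from 79133768 to 79149060, minus strand, GRCm38) had the greatest change of the group. Its counts were 2192, 2544 and 2013 with MSR1 KO and 6955, 5754 and 8791 with MSR1 WT. These correspond to 61.0, 63.9 and 43.3 CPM against 169, 121 and 213 CPM, and the groups did not overlap. The mean was 56.1 ± 11.2 CPM in MSR1 KO and 168 ± 45.8 CPM in MSR1 WT macrophages (SD, n = 3). Mfge8 was 2.99-fold lower (95% interval 2.12 to 4.22), which is a fall by 1.58 on the log2 scale (standard error 0.22, adjusted p = 0.014). Without MSR1 KO replicate 1 the log2 fold change was -1.64 with an adjusted p of 0.0518, and without MSR1 WT replicate 1 it was -1.58 with an adjusted p of 0.0645. The call held without any of the other 4 libraries.

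Stromal markers and Itgax moved alongside Mfge8. The summed level of 18 stromal markers, of which none was at 0, was 1935, 2504 and 1985 CPM in the MSR1 KO and 3503, 2734 and 3087 CPM in the MSR1 WT libraries, with no overlap. MSR1 KO replicate 2 was the highest of its group and MSR1 WT replicate 2 the lowest of its group for both Mfge8 and this sum. At the other ends the orders differed, since Mfge8 was lowest in MSR1 KO replicate 3 and highest in MSR1 WT replicate 3, whereas the stromal sum was lowest in MSR1 KO replicate 1 and highest in MSR1 WT replicate 1. Of the stromal markers 6 of 18 were lower and none higher in MSR1 KO, with a median log2 fold change of -0.41. They included Pdgfra (-1.19, 7.13 against 16.2 CPM), Cxcl12 (-1.11, 82.1 against 177 CPM), Lox (-0.97, 153 against 299 CPM) and Pdgfrb (-0.87, 21.6 against 39.4 CPM). Not every stromal marker was lower. Thy1, named after its values were seen, was higher in each MSR1 KO library (6.43 against 2.61 CPM, log2 fold change 1.31, adjusted p = 0.091) and passed as higher with DESeq2, and Lum and Runx2 had log2 fold changes of 0.46 and 0.020 with overlapping groups. The most abundant stromal markers were Acta2 (log2 fold change -0.68, adjusted p = 0.024), Col1a2 (-0.39, adjusted p = 0.11) and Col1a1 (-0.26, adjusted p = 0.37). The count of 6 fell to 1 when replicate 1 of either genotype was left out, to 2 without MSR1 KO replicate 3, and was 4 to 7 without the others. Over all genes, the 436 lower calls fell to 83 without MSR1 KO replicate 1 and to 53 without MSR1 WT replicate 1. Itgax, the integrin CD11c of dendritic cells and of some macrophages, was at 25.2, 18.4 and 15.4 CPM in MSR1 KO and 112, 77.4 and 144 CPM in MSR1 WT libraries. It was the single dendritic cell marker that passed the test among 8 tested (log2 fold change -2.50, standard error 0.25, adjusted p = 0.0045), and it ranked the MSR1 WT libraries as Mfge8 did. Within MSR1 KO both were lowest in replicate 3, but Itgax was highest in replicate 1 and Mfge8 in replicate 2. The summed level of 9 dendritic cell markers was 20.7 to 30.0 CPM in MSR1 KO and 80.4 to 149 CPM in MSR1 WT libraries, and none was at 0 in all libraries. Itgax made up most of this sum. Without it the other 8 markers summed to 4.84, 6.25 and 5.34 CPM in MSR1 KO and 4.71, 3.10 and 5.83 CPM in MSR1 WT libraries, which overlapped. Ccr7 (log2 fold change 2.49, adjusted p = 0.18), Xcr1 (2.04, adjusted p = 0.060) and Clec9a (1.80, adjusted p = 0.36), named after their values were seen, had higher means in MSR1 KO and did not pass the edgeR test. DESeq2 called 1 dendritic cell marker higher and 1 lower. The part of stromal or Itgax transcripts in the result for Mfge8 was not tested. The paper describes the RNA as total RNA of macrophages. For its polarization assays it placed BMSCs in the upper and macrophages in the lower chamber. Which cells gave the stromal transcripts was not tested. In bulk RNA, fewer cells of a type and less RNA per cell cannot be told apart.

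Axl (ENSMUSG00000002602.16, chromosome 7 from 25757273 to 25788705, minus strand) was the TAM receptor that differed. The counts were 24480, 30815 and 30124 with MSR1 KO and 17559, 19725 and 23662 with MSR1 WT. In CPM these were 682, 774 and 648 against 426, 416 and 573, so the lowest MSR1 KO library lay above the highest MSR1 WT library. The mean was 701 ± 65.2 CPM in MSR1 KO and 471 ± 87.9 CPM in MSR1 WT macrophages (SD, n = 3). Axl was 1.49-fold higher (95% interval 1.21 to 1.83), with a log2 fold change of 0.57 (standard error 0.13) and an adjusted p of 0.0477, just inside the threshold and just under the study's fold of 1.5. The call was lost without MSR1 KO replicate 1, 2 or 3 (adjusted p = 0.112, 0.124 and 0.0743) and without MSR1 WT replicate 1 or 2 (0.175 and 0.157), while without MSR1 WT replicate 3 the log2 fold change was 0.74 with an adjusted p of 0.00811. It was also lost when genes were scaled by library size alone (0.54, adjusted p = 0.0552).

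Interferon-response genes moved with Axl. Of 18 such genes, 16 were higher in MSR1 KO macrophages and none lower, with a median log2 fold change of 1.26. Their summed level was 3687, 3674 and 3373 CPM in MSR1 KO and 1357, 1149 and 2082 CPM in MSR1 WT libraries. MSR1 WT replicate 3 was the highest and MSR1 WT replicate 2 the lowest MSR1 WT library for both Axl and this sum. Within MSR1 KO, replicate 3 was the lowest for both, but the order of the others differed. Axl was at 682 CPM in replicate 1 and 774 CPM in replicate 2, whereas the sum was 3687 and 3674 CPM. The list included Ifi44 (1.80, 156 against 44.8 CPM), Ifit2 (1.54, 407 against 140 CPM), Ifit3 (1.54, 369 against 127 CPM) and Rsad2 (1.54, 227 against 78.2 CPM), where the first value is the log2 fold change. The count of 16 was 1 without MSR1 WT replicate 1, 2 without MSR1 KO replicate 1, 5 to 7 without MSR1 KO replicate 2, MSR1 KO replicate 3 or MSR1 WT replicate 2, and 18 without MSR1 WT replicate 3. Calls over all genes moved in the same fits. The 369 higher genes became 18 without MSR1 WT replicate 1, 42 without MSR1 KO replicate 1 and 407 without MSR1 WT replicate 3. The part of interferon-response transcripts in the result for Axl was not tested.

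Mertk (ENSMUSG00000014361.5, chromosome 2 from 128698956 to 128802894, plus strand) showed the narrowest interval of the 8 genes. Its counts were 11419, 10840 and 14091 in MSR1 KO and 12143, 13613 and 12306 in MSR1 WT libraries. The levels of 318, 272 and 303 CPM spanned those of 295, 287 and 298 CPM on both sides. The mean was 298 ± 23.3 CPM in MSR1 KO and 293 ± 5.62 CPM in MSR1 WT macrophages (SD, n = 3). The estimate was a log2 fold change of 0.023 with a standard error of 0.074 (adjusted p = 0.913), and its 95% interval allowed a fold of 0.903 to 1.14. The sign turned to a log2 fold change of -0.0090 when genes were scaled by library size alone.

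Tyro3 (ENSMUSG00000027298.17, chromosome 2 from 119797733 to 119818104, plus strand), the TAM receptor known best from the nervous system, was scarce. Only 46, 78 and 86 counts fell on it with MSR1 KO and 86, 68 and 48 with MSR1 WT. The levels were 1.28, 1.96 and 1.85 CPM against 2.09, 1.43 and 1.16 CPM, and the groups overlapped. The log2 fold change of 0.12 had a 95% interval of -0.61 to 0.86 (standard error 0.32, adjusted p = 0.888). A difference of the size seen for Axl lay within this interval.

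**Figure D2:**
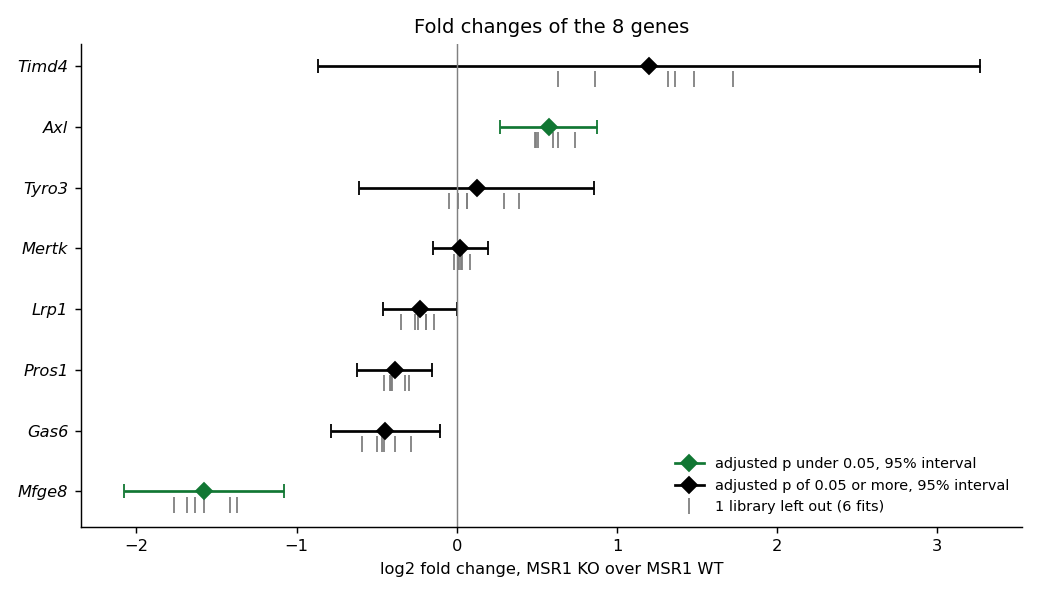
Log2 fold change (MSR1 KO over MSR1 WT) of the 8 genes on the horizontal axis, with diamonds for the edgeR estimate and bars for its 95% interval. Green marks an adjusted p under 0.05, and grey ticks are the 6 fits with 1 library left out. Mfge8 at -1.58 and Axl at 0.57 are green, and the interval of Timd4, from -0.87 to 3.26, is the widest.

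Both vitamin K-dependent ligands had lower values in MSR1 KO libraries, and neither passed the test. Gas6 (ENSMUSG00000031451.6, chromosome 8 from 13465374 to 13494490, minus strand), the ligand of all TAM receptors, had 20397, 16701 and 30404 counts in MSR1 KO and 33358, 34869 and 28606 counts in MSR1 WT libraries. The levels were 568, 420 and 654 CPM against 809, 735 and 692 CPM, with means of 547 ± 119 and 745 ± 59.0 CPM (SD, n = 3). The groups did not overlap, but the MSR1 KO libraries were spread widely, with replicate 2 the lowest. The log2 fold change was -0.45 with a 95% interval of -0.79 to -0.10 (standard error 0.15, adjusted p = 0.145). Gas6 shares 1.33% of its exon bases with Tmem255b on the opposite strand, and no other gene of the 8 overlapped another gene's exons.

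Pros1 (ENSMUSG00000022912.8, chromosome 16 from 62854307 to 62929346, plus strand), which encodes the anticoagulant protein S, had 1583, 1706 and 1784 counts in MSR1 KO and 2522, 2520 and 2047 counts in MSR1 WT libraries. In CPM these were 44.1, 42.9 and 38.4 against 61.2, 53.1 and 49.6, again without overlap. The mean was 41.8 ± 3.0 CPM in MSR1 KO and 54.6 ± 5.95 CPM in MSR1 WT macrophages (SD, n = 3). The log2 fold change was -0.39 (standard error 0.10, 95% interval -0.62 to -0.15), and the adjusted p was 0.0758. With DESeq2's Wald test in place of edgeR, Gas6 (-0.44, adjusted p = 0.0386) and Pros1 (-0.38, adjusted p = 0.0234) both passed as lower, and so all 3 bridging proteins did. The lower stromal sum in MSR1 KO libraries stood beside both ligands too, but within MSR1 KO the library with the lowest Gas6 (replicate 2, 420 CPM) had the highest stromal sum (2504 CPM). The part of stromal transcripts in the values of the ligands was not tested.

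In CPM, which are not corrected for gene length, Lrp1 and Timd4, the receptors outside the TAM family, lay at opposite ends of abundance. Lrp1 (ENSMUSG00000040249.15, chromosome 10 from 127538161 to 127621148, minus strand) had 39230, 52449 and 46799 counts in MSR1 KO and 52695, 66951 and 54417 counts in MSR1 WT libraries. Its levels of 1092, 1317 and 1007 CPM overlapped those of 1278, 1411 and 1317 CPM. The means were 1139 ± 160 and 1335 ± 68.3 CPM (SD, n = 3), and the log2 fold change was -0.23 (standard error 0.10, 95% interval -0.46 to 0.0035, adjusted p = 0.272).

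Timd4 (ENSMUSG00000055546.6, chromosome 11 from 46810800 to 46844332, plus strand), a marker of resident macrophages in several tissues, was at the edge of detection. MSR1 KO libraries held 10, 12 and 24 counts and MSR1 WT libraries 0, 12 and 9 counts. The levels were 0.278, 0.301 and 0.516 CPM in MSR1 KO and 0, 0.253 and 0.218 CPM in MSR1 WT libraries, where the count of 0 allows up to 0.0728 CPM (3 counts, counting error only). Each MSR1 KO value lay above each MSR1 WT value, but the log2 fold change of 1.20 had a standard error of 0.90 and a 95% interval of -0.87 to 3.26 (adjusted p = 0.542). The interval thus allowed a difference in either direction, and the part of depth in its width was not tested.

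To compare genes with one another, CPM values were divided by the length in kilobases (kb) of all annotated exons of the gene. Gas6 had the highest mean of the 8 transcripts on this scale, at 215 ± 46.6 CPM per kb in MSR1 KO and 293 ± 23.2 in MSR1 WT macrophages (SD, n = 3). In MSR1 WT macrophages Axl (93.7 ± 17.5), Lrp1 (75.4 ± 3.86), Mertk (67.6 ± 1.30), Mfge8 (35.7 ± 9.75) and Pros1 (13.4 ± 1.46) followed, and Tyro3 (0.252 ± 0.077) and Timd4 (0.0722 ± 0.063) came last. The ranges of neighbours in this order did not overlap. In MSR1 KO macrophages Axl (139 ± 13.0) was again next to Gas6, whereas Mertk (68.7 ± 5.37) and Lrp1 (64.3 ± 9.06) had overlapping ranges. Mfge8 (11.9 ± 2.38) and Pros1 (10.2 ± 0.733) overlapped as well, as did Tyro3 (0.274 ± 0.059) and Timd4 (0.168 ± 0.060). The order depends on the length used. With the mean length of coding transcripts, Lrp1 rose from 75.4 to 265, Axl from 93.7 to 162 and Mfge8 from 35.7 to 81.1 CPM per kb in MSR1 WT macrophages, which put Lrp1 above Axl and Mfge8 above Mertk (68.1). In MSR1 KO macrophages, Axl (241) and Lrp1 (226) then both stood above Gas6 (215).

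**Figure D3:**
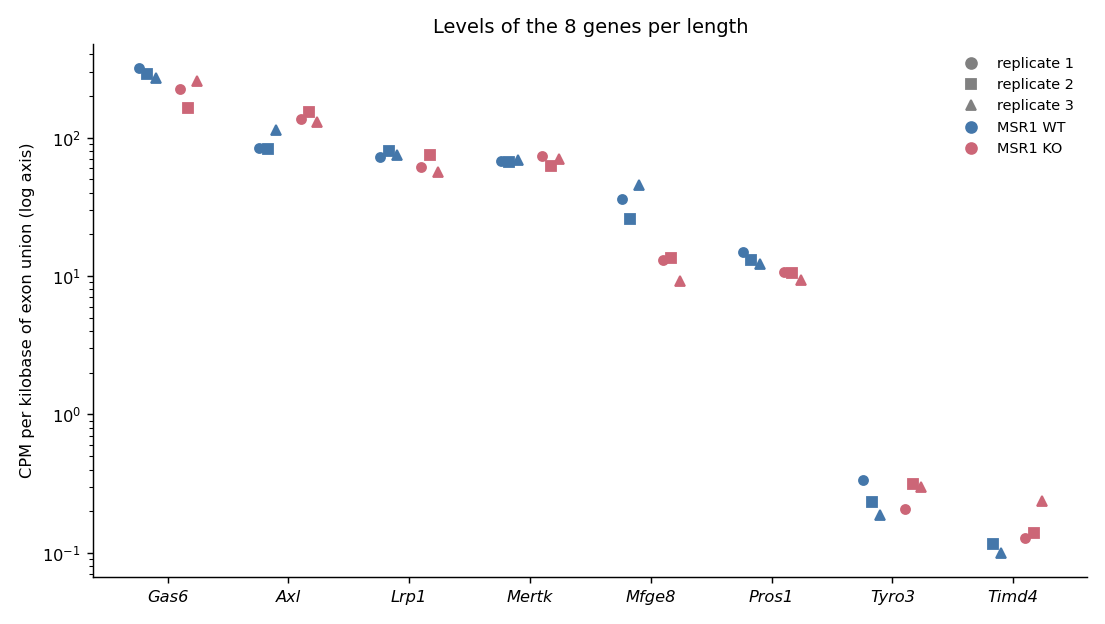
Level of each gene in CPM per kb of exon union on a log axis, ordered by the MSR1 WT mean, in MSR1 WT (blue) and MSR1 KO (red) libraries with a marker shape per replicate. Gas6 is at the left, and Tyro3 and Timd4 lie at the right, below 1 CPM per kb; the Timd4 value of 0 in MSR1 WT replicate 1 cannot be drawn on this axis.

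The makeup of the receptor and bridge pools was described on the same per-length scale. Axl made up 66.8% ± 3.55 of the TAM receptor transcripts in MSR1 KO and 57.7% ± 3.98 in MSR1 WT macrophages, Mertk 33.1% ± 3.56 and 42.1% ± 3.93, and Tyro3 0.132% ± 0.028 and 0.159% ± 0.059 (SD, n = 3). The 3 TAM receptors summed to 209, 217 and 199 CPM per kb with MSR1 KO and 153, 149 and 183 with MSR1 WT. The summed receptor level was thus higher in every MSR1 KO library than in any MSR1 WT library. The 3 bridging proteins summed to 247, 189 and 275 CPM per kb in MSR1 KO and 368, 327 and 329 in MSR1 WT libraries, the opposite direction and also without overlap. Gas6 made up 90.3% ± 3.0 of the bridge transcripts in MSR1 KO and 85.6% ± 2.84 in MSR1 WT macrophages, and Mfge8 made up 5.28% ± 1.93 and 10.5% ± 3.0. These shares depend on the length used. With the mean length of coding transcripts, chosen for the shares after seeing the data, Mfge8 made up 11.1% ± 3.79 and 20.7% ± 5.23, Gas6 83.9% ± 4.89 and 75.1% ± 4.91, and Axl 77.5% ± 2.75 and 70.0% ± 3.4 of its pool (SD, n = 3). Neither sum overlapped between the genotypes with that length either.

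Ratios within a library do not depend on how libraries are scaled, and 6 of them were compared between the genotypes. The log2 ratio of Axl to Mertk was 0.89, 1.29 and 0.88 with MSR1 KO and 0.32, 0.32 and 0.73 with MSR1 WT, so Axl exceeded Mertk in every library and by more in MSR1 KO. The difference was 0.56 (exact two-sided permutation p = 0.1, adjusted over the 6 ratios 0.2). The ratio of Mfge8 to Gas6 was 2.14-fold lower in MSR1 KO (log2 ratio -4.16 ± 0.60 against -3.07 ± 0.45, SD, n = 3, exact permutation p = 0.1, adjusted 0.2). The ratio of Mfge8 to Pros1 was 2.26-fold lower (log2 ratio 0.21 ± 0.21 against 1.39 ± 0.47, SD, n = 3, exact permutation p = 0.1, adjusted 0.2). In these 3 ratios the groups did not overlap, and 0.1 is the smallest p that 3 against 3 libraries can give, so none could pass a threshold of 0.05. The other 3 ratios overlapped between the groups. The difference was 0.12 for Tyro3 to Mertk (exact permutation p = 0.7), 0.44 for Axl to Tyro3 (0.4) and -0.084 for Gas6 to Pros1 (0.7).

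**Figure D4:**
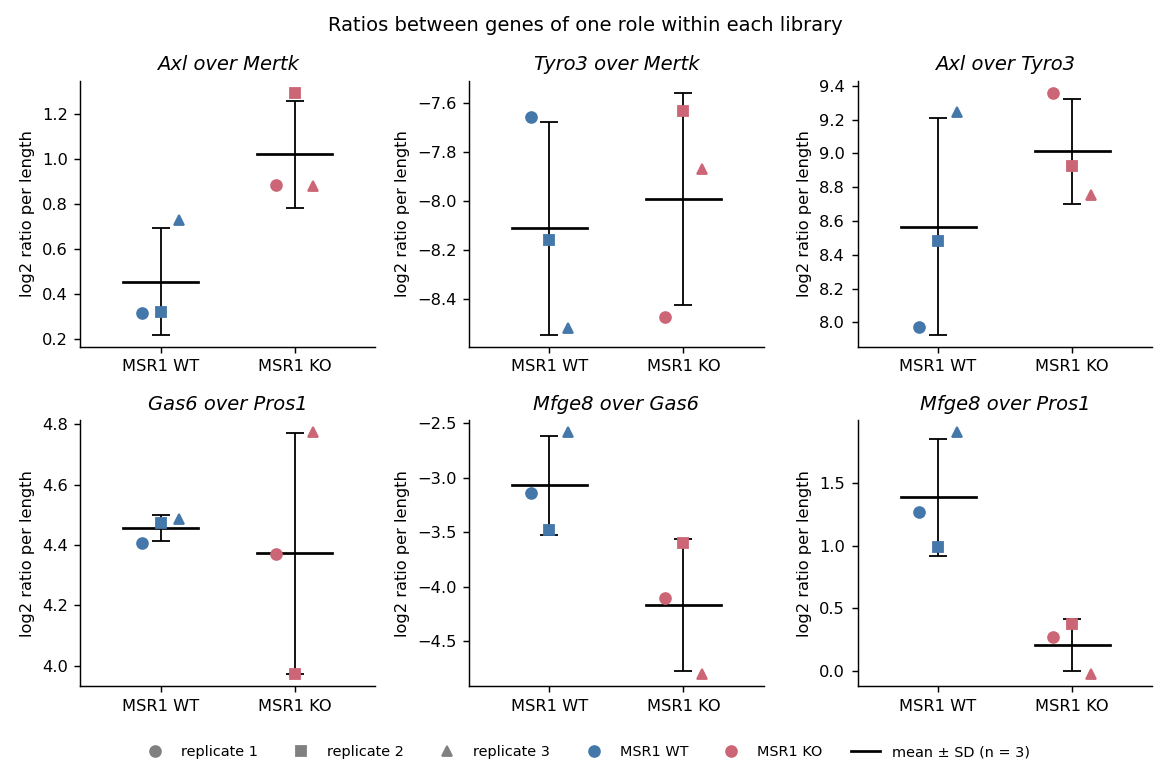
Log2 ratio of 2 genes per length within each library, 1 panel for each of the 6 pairs, for MSR1 WT (blue) and MSR1 KO (red) libraries with the mean ± SD (n = 3). The groups are apart for Axl over Mertk (upwards in MSR1 KO) and for Mfge8 over Gas6 and Mfge8 over Pros1 (downwards), and overlap in the other 3 panels; the vertical axes do not start at 0.

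Around these 8 genes, 9 lists of the uptake pathway were counted, 124 genes in all, of which 120 were tested. Of these, 8 were higher and 6 were lower in MSR1 KO macrophages, 11.7% of those tested against 4.91% of all genes, and their median log2 fold change was 0.026. The number called higher was 1 to 4 and the number called lower 3 to 5 when any 1 library was left out, and DESeq2 called 13 and 10. The 3 counts of 1 higher gene came without MSR1 KO replicate 1, MSR1 WT replicate 1 or MSR1 WT replicate 2. Calls over all genes shifted too. DESeq2 called 720 of 16402 genes higher and 848 lower, against 369 and 436 in edgeR. Fits with 1 library left out called 18 to 407 higher and 53 to 372 lower.

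Among 17 tested receptors for dying cells other than the 8 genes, 1 was higher and 2 were lower. Cd300lf, an immunoglobulin-like receptor that binds phosphatidylserine, was at 35.4, 37.8 and 30.9 CPM in MSR1 KO and 11.8, 13.7 and 15.2 CPM in MSR1 WT libraries (log2 fold change 1.36, standard error 0.13, adjusted p = 0.0039), and it passed without any 1 library. Stab1, the scavenger receptor stabilin-1, fell by 0.56 on the log2 scale (1557 against 2292 CPM, adjusted p = 0.025), and Cd36, a receptor for oxidized lipids, fell by 0.32 (1801 against 2246 CPM, adjusted p = 0.048). Stab1 passed only without MSR1 WT replicate 3 among the 6 fits with a library left out, and Cd36 in none of them.

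Of 13 other bridging and opsonizing factors, 2 were higher and 2 were lower. Anxa1, the anti-inflammatory annexin that dying cells expose, was at 197, 189 and 207 CPM in MSR1 KO and 370, 394 and 457 CPM in MSR1 WT libraries (log2 fold change -1.04, standard error 0.090, adjusted p = 0.0032). Ptx3, a soluble pentraxin that opsonizes microbes and dying cells, was at 8.19, 10.3 and 8.74 CPM against 31.9, 23.4 and 33.3 CPM (-1.70, standard error 0.16, adjusted p = 0.0040). Anxa1 and Ptx3 each passed without any 1 library. The complement component C3 (0.65, 359 against 229 CPM, adjusted p = 0.040) and the don't-eat-me protein Cd47 (0.36, 300 against 233 CPM, adjusted p = 0.043) were higher. Each kept its call in 1 of the 6 fits with a library left out, C3 without MSR1 KO replicate 3 and Cd47 without MSR1 WT replicate 3. The genes of the C1q chains, chosen after their values were seen, had MSR1 KO values above all MSR1 WT values without passing the test, with log2 fold changes of 0.38 for C1qa (adjusted p = 0.070), 0.28 for C1qb (0.102) and 0.25 for C1qc (0.126).

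For steps before and after binding, the shares of genes called lay on both sides of the 4.91% of all genes. They were 0% for find-me receptors and for upstream factors, 5.88% for engulfment and 9.52% for cargo digestion. None of 8 receptors for find-me signals passed in edgeR, although 4 had an unadjusted p under 0.05 and DESeq2 called 1 lower. Of 17 genes of the engulfment machinery, Rhog, a small GTPase upstream of Rac, was higher (0.33, 399 against 318 CPM, adjusted p = 0.039). DESeq2 called 1 gene of this list higher and 2 lower. Of 21 genes of cargo digestion and LC3-associated phagocytosis, Npc2, which exports cholesterol from lysosomes, was higher (0.34, 1262 against 999 CPM, adjusted p = 0.034), as was Uvrag (0.32, adjusted p = 0.049), which shares 17.6% of its exon bases with an antisense gene. Rhog, Npc2 and Uvrag passed in none of the 6 fits with a library left out. None of 11 nuclear receptors and other factors upstream of uptake genes passed in edgeR, with 2 at an unadjusted p under 0.05 and 2 called higher by DESeq2.

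Genes that act on the TAM proteins or lie downstream of them were counted next. Of 10 genes of the vitamin K cycle, shedding and processing, Vkorc1, the reductase that recycles vitamin K for the carboxylation of Gas6 and Pros1, was lower at 11.8, 9.95 and 12.0 CPM in MSR1 KO against 24.6, 26.4 and 24.1 CPM in MSR1 WT libraries (log2 fold change -1.16, standard error 0.11, adjusted p = 0.0045). It passed without any 1 library, but it shares 47.7% of its exon bases with Gm21974 on the same strand, so its counts are uncertain. Another list held 11 genes of signaling and feedback downstream of TAM receptors. Of these, Socs1, which restrains cytokine signals, was at 4.99 CPM in MSR1 KO and 1.95 CPM in MSR1 WT macrophages (log2 fold change 1.36, standard error 0.30, adjusted p = 0.045). It kept this call in 1 of the 6 fits with a library left out, the one without MSR1 WT replicate 3. A link of its change to TAM receptors was not tested. Among 12 tested genes of the LDL receptor family and its sorting relatives other than Lrp1, Sort1, a sorting receptor, was lower (-0.65, 107 against 169 CPM, adjusted p = 0.011), a call lost without MSR1 WT replicate 1, and the median of the list was -0.18.

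**Figure D5:**
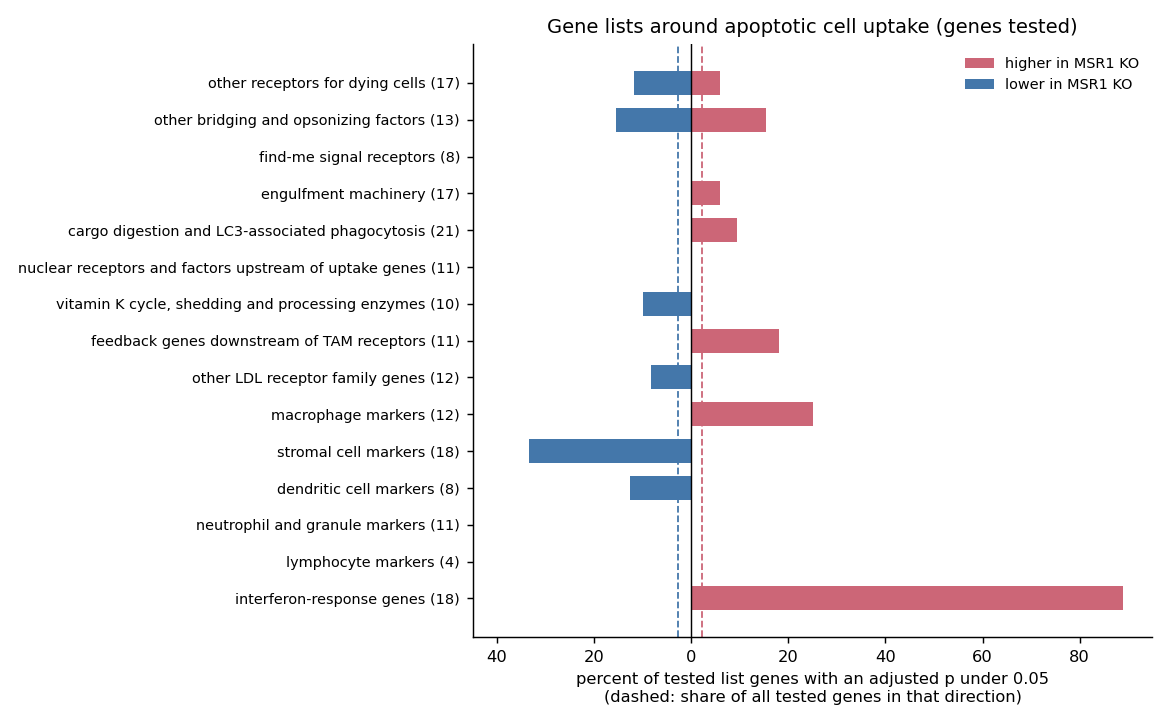
Percent of the tested genes of each of 15 lists with an adjusted p under 0.05, to the right for higher and to the left for lower in MSR1 KO, with the number tested in parentheses. Dashed lines are the shares of all tested genes, 2.25% higher and 2.66% lower. The interferon-response list stands farthest to the right (16 of 18) and the stromal list farthest to the left (6 of 18).

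Other marker lists bear on which cells were in the libraries. Of 12 macrophage markers 3 were higher, namely Fcgr1, the high-affinity IgG receptor (1.14, 563 against 256 CPM, adjusted p = 0.018), Aif1 (0.67, 120 against 75.6 CPM, adjusted p = 0.020) and Ptprc, the leukocyte protein CD45 (0.35, 874 against 685 CPM, adjusted p = 0.030). Their number was 0 to 2 with any 1 library left out, and 0 without MSR1 WT replicate 1. None of 11 neutrophil markers passed in the edgeR test reported (3 had an unadjusted p under 0.05, and DESeq2 called 2 higher). With DESeq2's size factors, or with at least 10 counts in every library, edgeR called 1 higher. The neutrophil sum was 942 to 1352 CPM in MSR1 KO and 658 to 1056 CPM in MSR1 WT libraries. None of the 4 lymphocyte markers tested passed (0 at an unadjusted p under 0.05, and 0 by DESeq2), and their sum was 122 to 173 CPM in MSR1 KO and 111 to 161 CPM in MSR1 WT libraries.

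The genes whose levels ran most closely with Axl and with Mfge8 over the 6 libraries were sought among 9205 genes with a mean of at least 10 CPM. The points share their libraries and genotypes, so these correlations of log2 CPM are descriptions without a p. Axl ran closest with Sdc3 (Pearson r = 0.997, log2 fold change 0.58), a heparan sulfate proteoglycan, which shares 7.73% of its exon bases with antisense genes. Nudt16 (r = 0.996, log2 fold change 0.31) and Gpr141 (r = 0.993, 0.51) followed. Mfge8 ran closest with Malt1 (r = 0.990, log2 fold change -0.19), Uevld (r = 0.989, -0.28) and Pdlim5 (r = 0.987, -0.48). These genes changed by far less than Mfge8 itself, at -1.58.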

How the data were processed

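RNA-seq libraries of MSR1 KO and MSR1 WT macrophages (n = 3 each) were grouped by their labels. The submitters' processing notes name fastp 0.17.1, HISAT2 2.1.0, DESeq2 1.18.1 and R 3.4.3, whereas the paper's methods name TopHat and FPKM. The counting program, strand setting and genome build are not given in the sources used here. The authors deposited raw counts per gene and library, which were used here. The same deposited table holds a signal per library, the count divided by a size factor, beside which the authors' own log2 values and p-values of their comparison were left unused. No value column was left without a sample (0), and no row lacked a symbol (0), but 27 symbols had been turned into dates. Of 52550 gene identifiers, 52403 were in GENCODE M21 (GRCm38), 49909 with the same start and end, so positions and exon lengths are given on GRCm38. Mitochondrial genes had 0 counts.

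Counts were filtered with filterByExpr, scaled by TMM (factors 0.981 to 1.02) and put through edgeR's quasi-likelihood test (glmQLFTest, edgeR 4.0.16, R 4.3.3). Benjamini-Hochberg adjustment ran over 16402 genes, and a standard error is the absolute log2 fold change divided by the root of F. CPM values use TMM-scaled library sizes. The limit for a count of 0 was set at 3 counts. Ratios were compared by exact two-sided permutation tests in scipy 1.17.1. Promoters are from RefSeq (GRCm38.p6), and all 8 genes matched. The fit was tested on simulated counts.

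Total counts were 36143518 to 47417448 per library, and depth limits the scarce genes Tyro3 and Timd4 most. Libraries of a genotype differed beyond counting noise (chi-square per degree of freedom 25.7 to 51.0), so none was a duplicate.

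The 8 genes and all lists were chosen with earlier results of these data known. Named besides the 8 genes and Msr1 were, of each list, up to 4 called genes with the greatest change and a mean of at least 1 CPM, the 3 macrophage and stromal markers with the most counts, and the 3 genes most like each called gene. A gene that this rule names is not reported here. Alternatives were DESeq2 1.42.0, edgeR with DESeq2's size factors or with library size alone, no filter, a minimum of 10 counts per library, a replicate block, and leaving out each library. DESeq2 and leave-one-out counts of the lists, shares by coding-transcript length and the dendritic sum without Itgax were added after seeing the data.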

Additional observations from a re-analysis of the deposited data

How the results depend on the processing

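The gene-wise log2 fold changes kept their direction under every alternative run for 6 of the 8 genes. Mertk turned to -0.0090 with library size alone and to -0.020 without MSR1 KO replicate 1 (range with 1 library left out -0.020 to 0.083), and Tyro3 turned to -0.048 without MSR1 WT replicate 3 (-0.048 to 0.39). Axl passed in 4 of 12 alternatives. It missed the threshold with library size alone (0.54, adjusted p = 0.0552), with no filter (0.57, 0.0666) and with the replicate block (0.58, 0.105), and its range with 1 library left out was 0.49 to 0.74. Mfge8 passed in 9 of 12 alternatives, missing it with the replicate block (-1.56, 0.0566) and without MSR1 KO replicate 1 or MSR1 WT replicate 1, within a range of -1.77 to -1.37. DESeq2 added Gas6 (-0.44) and Pros1 (-0.38), whose ranges with 1 library left out were -0.59 to -0.29 and -0.45 to -0.30. Lrp1 ranged from -0.35 to -0.14. Timd4 gave no value where every library needed 10 counts. The cause of these shifts was not tested, except that leaving out a library lowers the number of samples.

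Of the 8 genes, those called higher numbered 0 with library size alone, with no filter and with the block, and 0 to 1 with 1 library left out. Those called lower numbered 3 with DESeq2, 0 with the block and 0 to 1 with 1 library left out. The study's definition held for 1 to 3 genes with 1 library left out (3 when MSR1 KO replicate 3 was absent, 2 when MSR1 KO replicate 1 or MSR1 WT replicate 3 was absent). Pathway genes called higher were 13 with DESeq2, 1 with the block and 1 to 4 with 1 library left out, and those called lower were 10 with DESeq2 and 3 to 5. With 1 library left out, the Tyro3 to Mertk ratio ranged from -0.083 to 0.36 (-0.060 without MSR1 KO replicate 2, -0.083 without MSR1 WT replicate 3) and the Gas6 to Pros1 ratio from -0.28 to 0.12 (0.12 without MSR1 KO replicate 2). The other 4 ratios kept their sign, and no ratio can reach an exact permutation p under 0.2 with 2 against 3 libraries. Per coding transcript, MSR1 WT levels moved to 162 for Axl, 0.369 for Tyro3, 16.5 for Pros1, 81.1 for Mfge8 and 265 CPM per kb for Lrp1, because the mean includes short transcripts.

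Over all genes, 369 were higher and 436 lower in the test reported, 720 and 848 with DESeq2, 237 and 288 with no filter over 25014 genes, 59 and 78 with the block, and 18 and 53 without MSR1 WT replicate 1. No shared shift of same-numbered libraries was seen, since their deviations correlated at -0.026, 0.019 and -0.0048. The labels do not say whether these libraries were prepared together, so pairing is not excluded. Library size alone gave 314 higher and 516 lower, with a median log2 fold change of -0.034 over all genes.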
